A study of Mus musculus with 4 samples.

Results

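Rab GTPases are small switch proteins that give each membrane compartment of a cell its identity, and their transcripts were measured here in mouse 32Dclone3 cells infected with a virus carrying miR-125b or with the control virus. A gene counted as a Rab gene when its symbol in the deposited tables was Rab, digits and at most 1 lower-case letter, and the row with the longest exon length stood for the gene. This gave 57 genes from 65 rows, of 21506 genes in all, and 42 of the 57 passed the filter on low values and were tested. The 32Dclone3 line is a myeloid cell line that depends on interleukin-3, and all cells were grown in serum-containing medium with interleukin-3 (WEHI medium). The miR-125b group (2 libraries) had been stably infected with XZ-miR-125b, and the control group (2 libraries) with XZ, the same vector without it; each infection of a condition used its own virus supernatant. The comparison asks how the messenger RNA of these cells differs with added miR-125b, in 1 cell line and 1 vector, and the miRNA itself is not captured by libraries of poly(A)-enriched RNA. Culture days are not in the labels, and the p-values cover only how far these 4 libraries spread.

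A Rab protein is loaded with GTP by an exchange factor, whereupon it sits on a membrane through its prenyl anchor and recruits effectors such as motors and tethers. A GTPase-activating protein then returns it to the GDP form, which a GDP dissociation inhibitor carries back through the cytosol. Different Rabs mark the Golgi, early and recycling endosomes, late endosomes and lysosomes, and secretory granules. Granulocytes and mast cells depend on the granule Rabs, among them Rab27a and Rab27b, to dock and release their granules. A miRNA acts mainly by pairing of its seed, bases 2 to 8, with sites in the 3′ untranslated region (UTR) of messenger RNAs, which can lower their level or translation.

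The mature miRNA and its candidate sites in Rab messages are shown because they are the features of these genes that the added miRNA could pair with. The miRNA is the RefSeq entry mmu-miR-125b-5p (GRCm38.p6), with the seed in capitals. GENCODE M21 gave the sites: the longest 3′ UTR among the protein-coding transcripts of a gene was read on its sense strand, and the match is in capitals. Of the 57 Rab genes, 9 held the 7-base match to the seed, CTCAGGG, and in 4 of these 9 genes (Rab1, Rab17, Rab38 and Rab6b) an A followed it to give the 8-base match CTCAGGGA. The remaining 48 comprised 4 genes with TCAGGGA alone, 6 with TCAGGG alone and 38 with none of these letters. Sites are shown for the tested genes and not for Rab36 and Rab6b, which had 0 reads and 1 read over all libraries. The Rab22a site lay beyond the exon length of its row in the tables.
mmu-miR-125b-5p: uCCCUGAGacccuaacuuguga
Rab1: aggctggcctcgaaCTCAGGGAtccacct
Rab17: ctgatgagaactgtCTCAGGGAagatcca
Rab38: attgagcaaagccaCTCAGGGAcacagac
Rab3d: ggactgtctctcagCTCAGGGcacccttg
Rab8b: acttcggtttctatCTCAGGGgttgtctg
Rab40c: ctctacctcctgccCTCAGGGccctggcc
Rab22a: aggatactacacttCTCAGGGgcctccct

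Control replicate 2 stood apart from the other libraries in overall expression. On the first principal component of the tested genes, which held 57.8% of the variance, it lay at -34.1, while the miR-125b libraries lay at 12.2 and 22.1 and control replicate 1 at -0.219. Relative to control replicate 1 it was higher in genes rich in GC: across genes, which are not independent replicates, control replicate 1 minus control replicate 2 had a Spearman correlation of -0.477 with GC content. Where leaving it out moved a named difference by over 1.5 times, the value without it, or the range with each library left out in turn, stands beside that difference. Summed over all rows, which can share reads, libraries held 12.6 and 11.7 M reads with miR-125b and 11.2 and 10.4 M in control. With 1 row per gene the sums were 9.48 and 8.82 M with miR-125b and 8.42 and 7.73 M in control. The general myeloid genes Ptprc, Csf2rb, Il3ra and Itgam were detected in every library. Of the granulocytic markers, 11 of 11 were detected, with 2 above control and 5 below control in both miR-125b libraries; their summed level was 1541 and 1059 RPKM (reads per kilobase of exon and M reads) with miR-125b, against 1676 and 2098 RPKM in control. Members went both ways, with S100a8 at 10.9 and 0.870 RPKM with miR-125b against 144.3 and 127.6 RPKM in control, and Mpo at 273.0 and 105.3 RPKM with miR-125b against 39.1 and 54.2 RPKM in control. Macrophage markers summed to 111.0 and 88.9 RPKM with miR-125b and 54.0 and 71.3 RPKM in control. Of the 5 members, 1 was above control and 1 below in both miR-125b libraries. Cd68 stood above, at 85.2 and 76.7 RPKM with miR-125b against 26.0 and 39.1 RPKM in control. Emr1 stood below, at 24.4 and 11.3 RPKM with miR-125b against 27.2 and 30.6 RPKM in control. Mast cell and basophil markers summed to 79.9 and 50.8 RPKM with miR-125b and 245.8 and 145.3 RPKM in control, with Gzmb the highest member in every library, 2 of 7 members above control, 2 below and Fcer1a at 0. Erythroid and megakaryocyte markers summed to 99.5 and 214.4 RPKM with miR-125b and 162.1 and 226.9 RPKM in control, mostly from Itga2b, with Hbb-b1 at 0. Lymphoid markers summed to 1.38 to 4.72 RPKM and stromal markers to 4.89 to 9.94 RPKM over the 4 libraries, with Ms4a1, Col1a2 and Col3a1 at 0. The part of these differences in marker level in the Rab values was not tested, and in bulk RNA fewer cells of a type and less RNA per cell cannot be told apart.

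The summed level of the Rab genes overlapped between the groups. The 57 genes summed to 1545 and 1630 RPKM with miR-125b and to 1501 and 1654 RPKM in control, or 0.476% and 0.508% of reads against 0.466% and 0.521%. In each library 42 genes reached 1 RPKM. Rab5c, which drives fusion of early endosomes, was the most abundant in all 4 libraries. It stood at 301 and 325 RPKM with miR-125b and 322 and 358 RPKM in control, or 19.5% and 19.9% of the family's summed RPKM against 21.5% and 21.7%. The 6 highest genes of a library were not the same in all 4 libraries. Taken within each library, they held 45.0% and 47.5% of that sum with miR-125b and 48.1% and 49.9% in control. By mean level over all libraries, the 6 highest genes were Rab5c, Rab44, Rab38, Rab21, Rab1b and Rab7. Among these 6, the level of Rab7 was higher in both miR-125b libraries than in either control library and that of Rab1b lower, while the groups overlapped for the other 4.

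**Figure D1:**
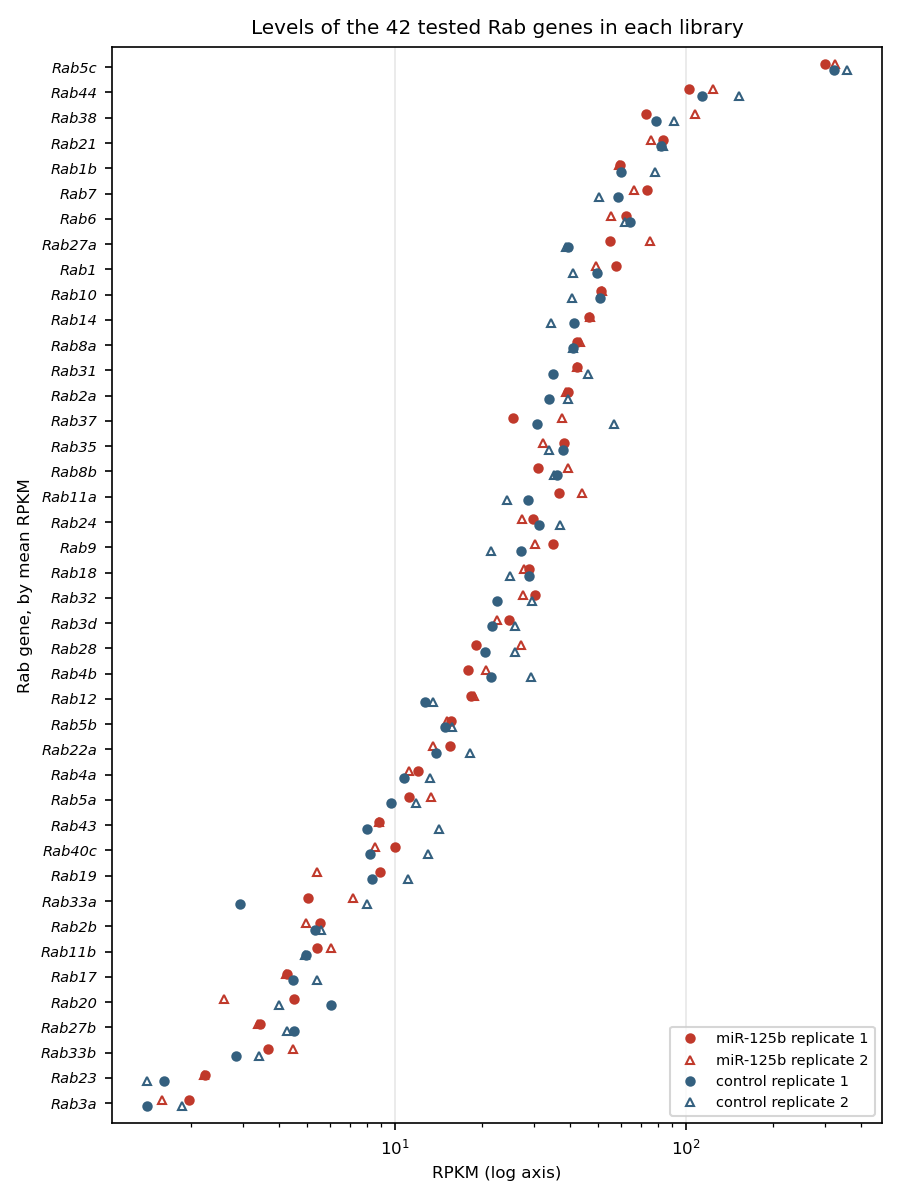
Level of each of the 42 tested Rab genes in the 4 libraries, in RPKM on a log axis, with genes ordered by mean level. Red marks are miR-125b libraries and blue marks control libraries, with circles for replicate 1 and open triangles for replicate 2; Rab5c stands above all others, between 301 and 358 RPKM, and Rab3a lowest, between 1.41 and 1.97 RPKM.

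No Rab gene passed the test over all genes. With limma on log2(RPKM + 1) and Benjamini-Hochberg adjustment over the 10310 tested genes, 0 Rab genes and 0 genes in all had an adjusted p under 0.05, and the smallest adjusted p of a Rab gene was 0.464. limma-voom on the recovered reads called 0 as well. At an unadjusted p under 0.05, both tools had 3 of the 42 Rab genes (7.14%), all higher with miR-125b, namely Rab27a, Rab11a and Rab12. Over all tested genes 9.38% reached that level, made up of 4.17% higher and 5.21% lower. The Rab count was thus near the background. The libraries of the groups did not overlap for 16 of 42 Rab genes (38.1%), 11 above and 5 below control, against a background of 42.8%, made up of 22.3% above and 20.4% below. The median log2 difference, miR-125b minus control, was -0.00080 over the Rab genes and 0.024 over all tested genes, and the median size of the difference in either direction was 0.17 and 0.20. Only Rab27a and Rab11a of the 42 differed by at least 0.5 on the log2 scale (4.76%), against 12.6% of all tested genes.

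These counts moved with the libraries. Without control replicate 2, 4 Rab genes had an unadjusted p under 0.05, the same 3 and Rab33a, against 11.4% of all genes, and the median over the Rab genes was 0.10. Without control replicate 1 there were 11, of which 6 were higher and 5 lower, against 29.2% of all genes. Only Rab27a remained when miR-125b replicate 1 was left out, against 6.48%, and 0 remained when miR-125b replicate 2 was, against 3.22%. The median over all tested genes without control replicate 2 was -0.0072, beside the 0.10 of the Rab genes. Libraries of the same group also differed. The larger of a pair was a median of 1.12 times the smaller with miR-125b and 1.20 times in control. It reached 1.73 times with miR-125b (Rab20) and 2.74 times in control (Rab33a).

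**Figure D2:**
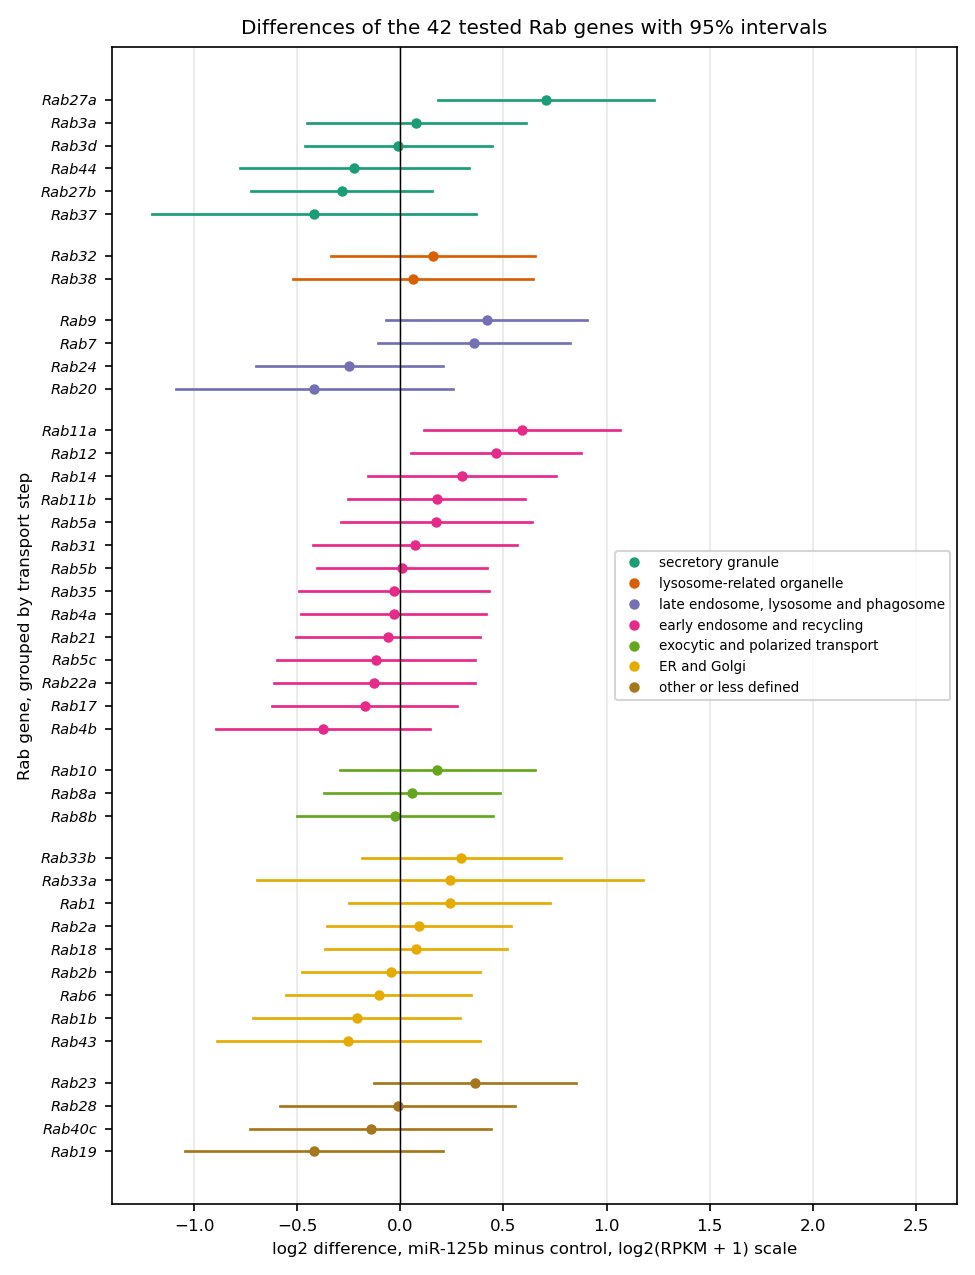
Log2 difference, miR-125b minus control on the log2(RPKM + 1) scale, of the 42 tested Rab genes, grouped by transport step, with 95% intervals from limma. The intervals of Rab27a, Rab11a and Rab12 lie above 0 before adjustment, and those of the other 39 genes include 0.

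Among the 6 tested granule Rabs, Rab27a was higher with miR-125b, and its close relative Rab27b lay on the other side of 0. Rab27a docks secretory lysosomes and granules at the plasma membrane, and its gene lies at chr9:72892672-72945399 on mm9, with 6 exons. It had 54.8 and 75.6 RPKM with miR-125b (2054 and 2634 reads), against 39.4 and 38.7 RPKM in control (1314 and 1194 reads). Both miR-125b libraries were above both control libraries, and the control libraries lay closer together than the miR-125b libraries. The log2 difference was 0.71 (95% interval 0.18 to 1.23, limma unadjusted p = 0.0157, adjusted p = 0.464), or 1.67 times on mean RPKM. Leaving out control replicate 2 gave 0.69, and leaving out a miR-125b library gave 0.48 (replicate 2 out) or 0.93 (replicate 1 out).

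Rab27b, which shares granule release with Rab27a in mast cells and platelets, was a minor member at 3.43 and 3.40 RPKM with miR-125b, against 4.51 and 4.25 RPKM in control. Both miR-125b libraries lay below both control libraries, at a log2 difference of -0.29 (95% interval -0.72 to 0.15, limma unadjusted p = 0.165, adjusted p = 0.638). Corrected for GC content in each library, the difference was -0.42 with an unadjusted p of 0.049. Rab27a made up 94.1% and 95.7% of the summed RPKM of the pair with miR-125b, and 89.7% and 90.1% in control. The ratio of Rab27a to Rab27b was 16.0 and 22.3 with miR-125b, against 8.74 and 9.10 in control. Because Rab27a lay above and Rab27b below control in both miR-125b libraries, this ratio could not overlap and is no separate result. With 2 libraries against 2, an exact 2-sided permutation test cannot go below p = 0.333.

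The other granule Rabs did not separate the groups. Rab44, an unusually large Rab with EF-hands and the second most abundant member, had 103 and 124 RPKM with miR-125b and 113 and 153 RPKM in control, at a log2 difference of -0.22 (-0.44 to -0.011 with each library left out, -0.011 without control replicate 2). Rab37, found on secretory granules of mast cells, had 25.5 and 37.5 RPKM with miR-125b and 30.8 and 56.5 RPKM in control. Its log2 difference of -0.42 was 0.0062 without control replicate 2 and ranged over -0.85 to 0.0062 with each library left out. Rab3d, a granule Rab of exocrine and mast cells, had 24.7 and 22.4 RPKM with miR-125b and 21.6 and 25.9 RPKM in control, at -0.0096 on the log2 scale (-0.13 to 0.12 with each library left out). The neuronal vesicle Rab Rab3a was near the filter, at 1.97 and 1.59 RPKM with miR-125b and 1.41 and 1.86 RPKM in control, with a log2 difference of 0.077 (-0.046 to 0.20 with each library left out). The groups overlapped for each of these 4 genes.

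**Figure D3:**
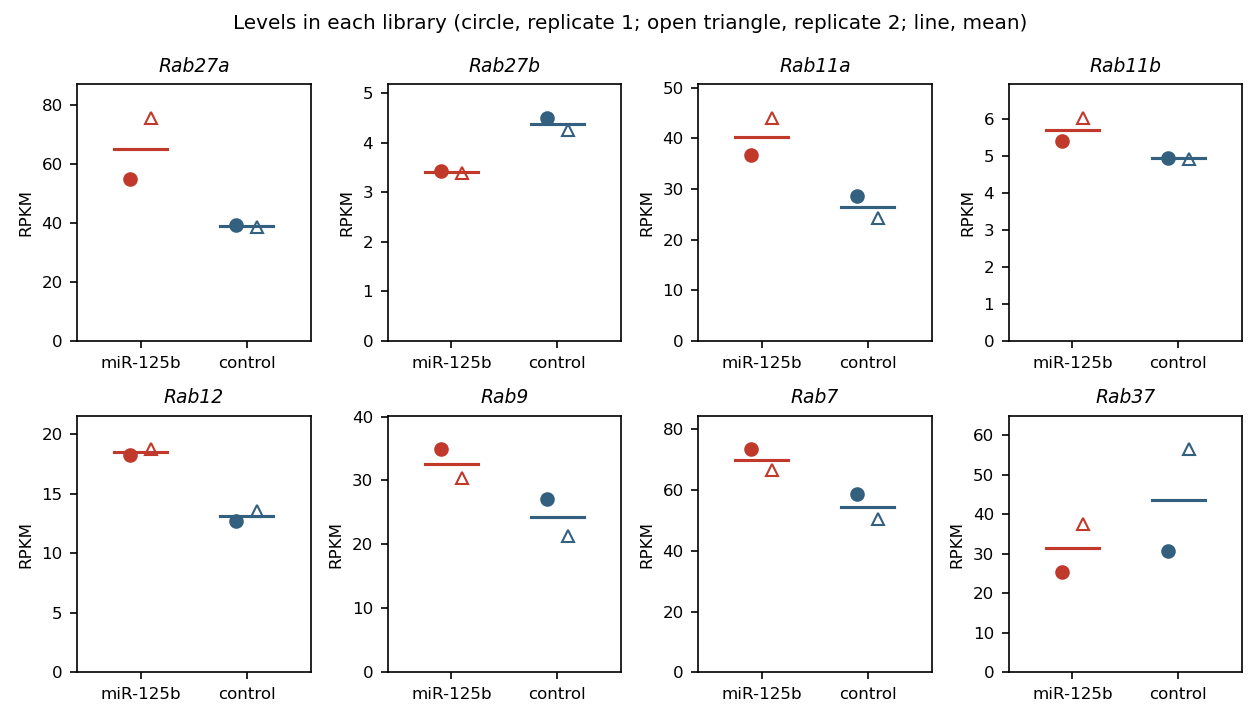
Level in RPKM of 8 Rab genes in each library, with miR-125b libraries in red on the left of each panel and control libraries in blue on the right, circles for replicate 1, open triangles for replicate 2 and a line for the mean. The groups do not overlap for any of the 8 except Rab37, whose control libraries stand at 30.8 and 56.5 RPKM. Rab27a, Rab27b, Rab11a, Rab12, Rab9 and Rab7 are among the 12 with the smallest p in these same libraries, which favours lack of overlap. Of the 42 tested Rab genes, 38.1% did not overlap, against 42.8% of all tested genes.

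The endosomal Rabs held the other members with the smallest p. Rab11a, the Rab of the recycling endosome (chr9:64563107-64585563 on mm9, 5 exons), had 36.7 and 44.1 RPKM with miR-125b, against 28.6 and 24.4 RPKM in control. Both miR-125b libraries were above both control libraries, at a log2 difference of 0.59 (95% interval 0.11 to 1.06, limma unadjusted p = 0.0227, adjusted p = 0.482). It was 0.48 without control replicate 2, and 0.43 with an unadjusted p of 0.051 after GC correction; its matched transcript has the lowest GC content of the 42, 39.5%. Rab11b, its paralog, had 5.40 and 6.03 RPKM with miR-125b and 4.95 and 4.93 RPKM in control, in the same order as Rab11a but at a log2 difference of 0.18 (95% interval -0.25 to 0.60). Rab11a made up 87.2% and 88.0% of the summed RPKM of these paralogs with miR-125b, and 85.2% and 83.2% in control.

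Rab12, which acts between recycling endosomes and lysosomes in transferrin receptor turnover (chr17:66843852-66869010 on mm9, 6 exons), had replicates close to each other in both groups. It stood at 18.2 and 18.7 RPKM with miR-125b, against 12.7 and 13.6 RPKM in control, with no overlap. Its log2 difference was 0.46 (95% interval 0.050 to 0.88, limma unadjusted p = 0.0331, adjusted p = 0.506), and it lay between 0.42 and 0.51 with any library left out. Rab14, which acts between Golgi and early endosomes, was also above control in both libraries, at 46.6 and 46.9 RPKM with miR-125b and 41.2 and 34.6 RPKM in control; its log2 difference of 0.30 was 0.18 without control replicate 2. Rab4b, a Rab of rapid recycling, lay the other way, at 17.9 and 20.5 RPKM with miR-125b and 21.5 and 29.4 RPKM in control. Its log2 difference was -0.37, with -0.16 without control replicate 2 and -0.59 without control replicate 1. Over the 14 tested genes of the early endosome and recycling class, which holds these and the early endosome Rabs, the median log2 difference was -0.011, with 7 above 0.

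Rab5c had a log2 difference of -0.12 (95% interval -0.60 to 0.36), or -0.043 without control replicate 2. It made up 91.8% and 92.0% of the summed Rab5a, Rab5b and Rab5c level with miR-125b, against 92.9% in each control library. Rab21, which takes part in integrin traffic, had 83.4 and 76.0 RPKM with miR-125b and 82.5 and 83.5 RPKM in control, at -0.060 on the log2 scale. Rab22a, an early endosome Rab, had 15.5 and 13.5 RPKM with miR-125b and 13.9 and 18.1 RPKM in control, at -0.13 (-0.31 to 0.054 with each library left out). Rab17, known mainly from epithelial cells, had 4.25 and 4.24 RPKM with miR-125b and 4.48 and 5.39 RPKM in control, at -0.17, or -0.063 without control replicate 2. Rab17 was below control in both libraries, while the groups overlapped for Rab5c, Rab21 and Rab22a.

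Among late endosome and lysosome Rabs, Rab9 and Rab7 were above control in both libraries and Rab24 below. Rab9, which returns mannose 6-phosphate receptors from late endosomes to the Golgi, had 34.9 and 30.3 RPKM with miR-125b, against 27.1 and 21.3 RPKM in control, at a log2 difference of 0.42 (limma unadjusted p = 0.0815, adjusted p = 0.563). Rab7, which drives fusion of late endosomes with lysosomes, had 73.4 and 66.5 RPKM with miR-125b, against 58.7 and 50.3 RPKM in control, at 0.36 (limma unadjusted p = 0.111, adjusted p = 0.595). Without control replicate 2 these differences were 0.25 and 0.25, and with all libraries both 95% intervals included 0. Rab20, linked to phagosome maturation, had 4.50 and 2.60 RPKM with miR-125b and 6.04 and 4.0 RPKM in control, with overlapping groups and a log2 difference of -0.42 that ranged over -0.72 to -0.11 with each library left out. Rab24, linked to autophagy, had 29.8 and 27.4 RPKM with miR-125b and 31.3 and 37.1 RPKM in control (log2 difference -0.25, and -0.13 without control replicate 2). The row of Rab7 is 624 bases long, so its level rests on a shorter stretch than those of the other members named, and RefSeq names pseudogenes of Rab7, Rab5a and Rab11b. Reads shared with these copies were not measured, so the values of these 3 genes are uncertain.

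For the Rabs of lysosome-related organelles, Rab38 and Rab32, the groups overlapped. Rab38, which with Rab32 delivers cargo to melanosomes and related organelles, had 73.1 and 107 RPKM with miR-125b and 79.2 and 91.0 RPKM in control. Its log2 difference of 0.061 ranged over -0.21 to 0.34 with each library left out. Rab32 had 30.3 and 27.7 RPKM with miR-125b and 22.5 and 29.7 RPKM in control, at 0.16 (-0.033 to 0.35 with each library left out). Rab38 made up 70.7% and 79.5% of the level of this pair with miR-125b, against 77.8% and 75.4% in control.

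Of the 9 tested Golgi and endoplasmic reticulum Rabs, 0 had an unadjusted p under 0.05, and their log2 differences lay between -0.25 and 0.29. Rab1 and Rab1b, which act in transport from the endoplasmic reticulum to the Golgi, leaned to opposite sides. Rab1 had 57.6 and 49.3 RPKM with miR-125b and 49.6 and 40.8 RPKM in control, with overlapping groups (log2 difference 0.24, or 0.10 without control replicate 2). Rab1b had 59.4 and 58.9 RPKM with miR-125b and 59.9 and 78.7 RPKM in control, with both miR-125b libraries below both control libraries by a narrow margin (log2 difference -0.21). Rab1 made up 49.2% and 45.6% of the level of this pair with miR-125b, against 45.3% and 34.2% in control, and the log2 difference of Rab1b was -0.018 without control replicate 2. Rab33b, a Golgi Rab that binds the autophagy protein Atg16l1, was above control in both libraries, at 3.67 and 4.47 RPKM with miR-125b and 2.85 and 3.41 RPKM in control (log2 difference 0.29, between 0.18 and 0.41 when a miR-125b library was left out).

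The 3 tested exocytic Rabs, Rab8a, Rab8b and Rab10, which serve traffic from the Golgi and recycling endosomes to the plasma membrane, had log2 differences of 0.056, -0.026 and 0.18. Without control replicate 2, Rab10 was at 0.024. Rab8b had 31.0 and 39.4 RPKM with miR-125b and 36.0 and 35.3 RPKM in control, with overlap and a range of -0.19 to 0.14 with each library left out. Of the remaining 4 tested genes, Rab23, a brake on Hedgehog signalling, was above control at 2.22 and 2.21 RPKM with miR-125b and 1.61 and 1.41 RPKM in control (log2 difference 0.36, limma adjusted p = 0.608). Rab19 had 8.88 and 5.42 RPKM with miR-125b and 8.36 and 11.1 RPKM in control, with overlap and a log2 difference of -0.42 that was -0.23 without control replicate 2; leaving out a miR-125b library gave -0.73 (replicate 1 out) or -0.11 (replicate 2 out). Rab40c, which carries a SOCS box and joins ubiquitin ligases, had 10.0 and 8.54 RPKM with miR-125b and 8.20 and 13.0 RPKM in control, and its log2 difference of -0.15 ranged over -0.45 to 0.16 with each library left out.

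The share of tested Rab genes with a seed match was close to that of all tested genes. Of the 42, 7 (16.7%) had one of the sites printed above, against 1549 of 9938 tested genes with a UTR (15.6%). The log2 differences of these 7 lay between -0.17 (Rab17) and 0.24 (Rab1), with a median of -0.026, and 0 of the 7 had an unadjusted p under 0.05, against 206 of the 1549 (13.3%). The 30 tested Rab genes with no site of any kind had a median of 0.074. Over all tested genes, the corresponding medians were -0.069 with a site and 0.050 with none. Of the genes with the 8-base match, Rab17 was below control in both miR-125b libraries, whereas Rab1 and Rab38 overlapped control. Rab27a, Rab11a and Rab12 had no match in their UTRs, which says only that these letters are absent from those UTRs.

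GC content moved with the differences among Rab genes. Across the 42 genes, the Spearman correlation of the log2 difference with the GC content of the matched transcript was -0.54, and over 10125 genes it was -0.28; genes share libraries and are not independent replicates. After the level of each library was corrected for GC content, the correlation over the Rab genes was -0.24. The corrected log2 difference was 0.64 for Rab27a, 0.43 for Rab11a and 0.41 for Rab12, with limma unadjusted p of 0.022, 0.051 and 0.039 and none passing adjustment. The same correction took Rab38 to -0.012 and Rab3d to 0.0060. Which part of the differences follows the composition of a library and which the group was not tested.

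**Figure D4:**
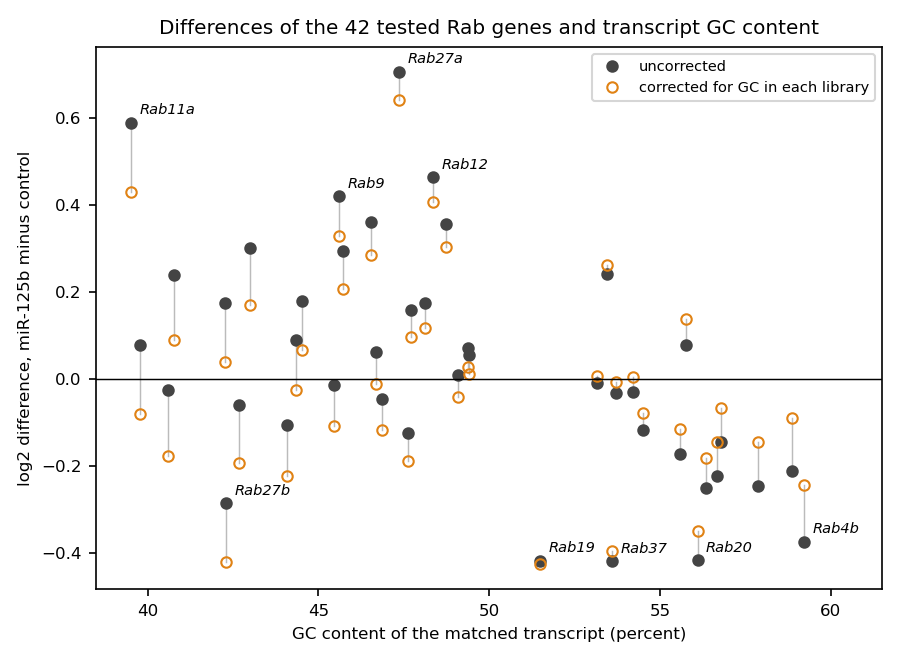
Log2 difference, miR-125b minus control, of the 42 tested Rab genes against the GC content of the matched transcript in percent. Filled points are uncorrected, open points are corrected for GC content in each library, and a line joins the values of a gene; the correlation is -0.54 before and -0.24 after correction.

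Partner genes were taken from a list of 153, of which 145 were in the tables and 114 were tested. Most are genes that act on Rabs or are recruited by them. The list also holds 8 genes with Rab-like symbols outside the naming rule, 5 of them tested, and the totals below include these. At an unadjusted p under 0.05 there were 14 of 114 (12.3%), 7 higher and 7 lower with miR-125b, against 9.38% of all tested genes; limma called 0 after adjustment, and leaving out a library changed the count to 4 (miR-125b replicate 1 out), 2 (miR-125b replicate 2 out), 31 (control replicate 1 out) or 14 (control replicate 2 out). The median log2 difference of the 114 was 0.062, against 0.024 over all tested genes. The groups did not overlap for 63 of the 114 (55.3%), 35 above and 28 below control, against 42.8% of all tested genes. By class, the GTPase-activating proteins had 3 of 35, all higher, the exchange factors 4 of 30 with 1 higher and 3 lower, and the effectors 5 of 38 with 3 higher and 2 lower. Genes with Rab-like symbols outside the naming rule had 2 of 5, both lower. The chaperones and prenylation enzymes that all Rabs share had 0 of 6.

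Of the effectors, Sytl1, Eea1 and Unc13d had the smallest p. Sytl1, a synaptotagmin-like Rab27 effector, had 0.947 and 1.06 RPKM with miR-125b, against 1.99 and 3.45 RPKM in control, at -0.86 (limma unadjusted p = 0.0136, adjusted p = 0.464), and -0.58 without control replicate 2. Eea1, the tether that Rab5 recruits to early endosomes, had 19.6 and 20.4 RPKM with miR-125b, against 14.2 and 11.5 RPKM in control, at a log2 difference of 0.61 (limma unadjusted p = 0.0151, adjusted p = 0.464). Unc13d (Munc13-4), the Rab27a effector that primes granules for release, had 46.3 and 52.3 RPKM with miR-125b, against 66.8 and 101 RPKM in control. Its log2 difference was -0.73 (limma unadjusted p = 0.0232, adjusted p = 0.483), and -0.43 without control replicate 2. The groups did not overlap for these 3 genes, with Eea1 above control and Sytl1 and Unc13d below. Appl2 and Osbpl1a, the other effectors of the 14, were taken up after their values were seen and had log2 differences of 0.62 and 0.47 (0.31 for Osbpl1a without miR-125b replicate 2).

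Of the exchange factors, Madd, which acts on Rab3 and Rab27 proteins, had 7.03 and 7.77 RPKM with miR-125b, against 11.0 and 13.0 RPKM in control, at -0.62 (limma unadjusted p = 0.0124, adjusted p = 0.464). Fam116a, an exchange factor for Rab14 also named Dennd6a, had 3.76 and 4.20 RPKM with miR-125b, against 6.02 and 7.92 RPKM in control, at -0.67. Dennd4a, an exchange factor for Rab10, had 17.7 and 21.2 RPKM with miR-125b, against 14.5 and 12 RPKM in control, at 0.52. Madd and Fam116a were below control and Dennd4a above it in both miR-125b libraries. Dennd1c, taken up after its values were seen, had a log2 difference of -0.60, or -0.28 without control replicate 2.

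Of the GTPase-activating proteins, Evi5, a TBC-domain protein reported to bind Rab11, had 8.86 and 8.47 RPKM with miR-125b, against 5.12 and 4.94 RPKM in control, at 0.68 (limma unadjusted p = 0.00635, adjusted p = 0.420). Sgsm2 had 13.3 and 14.7 RPKM with miR-125b, against 8.53 and 9.90 RPKM in control, at 0.56, and Tbc1d7 had 11.3 and 11.0 RPKM with miR-125b, against 7.87 and 7.38 RPKM in control, at 0.49; both have a TBC domain. The groups did not overlap for any of these 3. Among the shared machinery, the smallest p were those of Chm and Chml, the Rab escort proteins, and Rabggtb, a subunit of the enzyme that prenylates Rabs. Chm had 3.60 and 3.61 RPKM with miR-125b and 3.62 and 2.55 RPKM in control, at 0.18. Rabggtb had 55.7 and 43.3 RPKM with miR-125b and 52.1 and 35.1 RPKM in control, at 0.20, and Chml had 4.05 and 3.75 RPKM with miR-125b and 4.31 and 2.55 RPKM in control, at 0.17. All 3 overlapped between the groups, and without control replicate 2 the differences of Chm, Rabggtb and Chml were -0.0064, -0.082 and -0.12.

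Among the 14 partners, 3 of the 7 lower genes held the 7-base seed match, namely Rabl2a, Madd and Fam116a, and 0 of the 7 higher genes did. Over all tested genes with a UTR and an unadjusted p under 0.05, 33.9% of 495 lower genes and 9.22% of 412 higher genes held it, so the partner counts were near those shares. Of all 114 tested partners 23 held it, with a median log2 difference of -0.14, against -0.069 over all tested genes with a match. Among the listed partners, some sites, such as that of Tbc1d20, lay beyond the exon length of the row. Rabl2a, a Rab-like protein linked to cilia, had 3.66 and 2.80 RPKM with miR-125b, against 6.28 and 9.49 RPKM in control, at a log2 difference of -1.05 (95% interval -1.63 to -0.48, limma unadjusted p = 0.00379, adjusted p = 0.405), and -0.79 without control replicate 2. Rabl3, a Rab-like protein with no seed match, had 3.64 and 2.91 RPKM with miR-125b, against 6.61 and 5.0 RPKM in control, at -0.67. Rab7l1, set apart from the 57 Rab genes only by its symbol, was the remaining one of the 3 with the smallest p in that class. It had 8.88 and 8.97 RPKM with miR-125b and 10.2 and 14.9 RPKM in control, with no overlap. Its log2 difference was -0.43, or -0.17 without control replicate 2. The sites of Rabl2a, of Madd and the first of Fam116a are shown because these are the lower partners with a match, again with the match in capitals.
Rabl2a, 8-base match: cttcccaaactgacCTCAGGGActgtccc
Rabl2a, 7-base match: aaaactgcctccatCTCAGGGtagaaagc
Madd: tagccttctgttccCTCAGGGctccagag
Fam116a: gcacactgagcaagCTCAGGGgcacagca

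**Figure D5:**
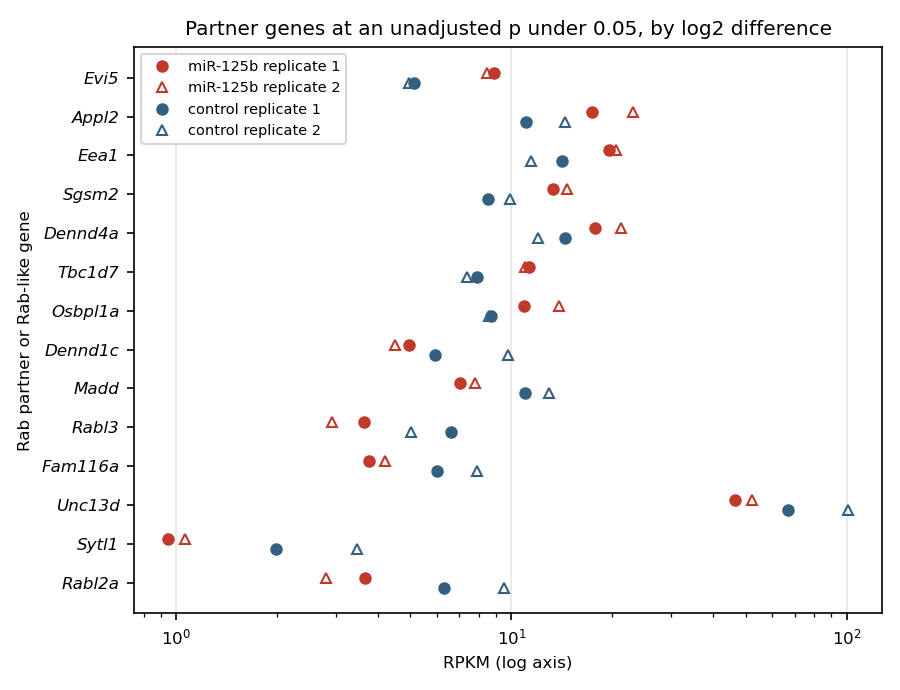
Level in RPKM, on a log axis, of the 14 Rab partners and Rab-like genes with an unadjusted p under 0.05, ordered by log2 difference with the most positive at the top. Red marks are miR-125b libraries and blue marks control libraries, with circles for replicate 1 and open triangles for replicate 2. The groups do not overlap for any of the 14, from Evi5 at 0.68 to Rabl2a at -1.05. The 14 were picked by p in these same libraries, which largely fixes that lack of overlap. Of all 114 tested partners, 55.3% did not overlap, against 42.8% of all tested genes.

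The 15 Rab genes that were not tested were at or near 0. Rab36, Rab15, Rab42, Rab39 and Rab9b had 0 reads in every library, where 3 reads would have given between 0.0632 and 0.393 RPKM depending on the gene and library. Rab40b, Rab3b, Rab6b and Rab3c had 1 or 2 reads over all libraries, and Rab26, Rab34 and Rab39b had 5 or 6. Rab30, Rab13 and Rab25 had over 20. Rab13, a Rab of tight junction traffic, had 13 and 9 reads with miR-125b, against 2 and 5 in control, or 0.962 and 0.716 RPKM against 0.166 and 0.450 RPKM; without the filter on low values it had an unadjusted p under 0.05, which is the 4th such Rab gene in that fit. For the 12 genes with fewer reads than Rab25, a difference between the groups was not detectable at this depth.

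The tables held several transcript rows for 8 of the Rab genes, among them Rab37 and Rab27b. For Rab37, the row of 2581 bases had 832 and 1137 reads with miR-125b and 894 and 1512 in control, and the row of 2193 bases had 890 and 1238 reads against 949 and 1659. The shorter row thus held more reads than the longer in all 4 libraries, and in both rows control replicate 2 was the highest. For Rab27b the rows of 6977 and 6876 bases had 302 and 278 reads with miR-125b, against 353 and 308 in control, and 268 and 243 reads against 318 and 251, with both rows lower in both miR-125b libraries. Some Rab exons overlap exons of a neighbour on the other strand, by 219 bases in Rab5a, 106 in Rab6 and 45 in Rab2b, and whether the reads were counted by strand is not stated in the labels.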

How the data were processed

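Gene expression was measured by RNA sequencing of poly(A)-enriched RNA in 4 libraries of 32Dclone3 cells, grouped by their titles into 2 miR-125b and 2 control libraries. The authors deposited 1 table per library with 26982 transcript rows and RPKM values, with mm9 as the build per the submitters' processing notes. The aligner, read counter and treatment of multiply mapped reads were not given in the sources used here. Because RPKM times exon length fell on whole steps in each library (tolerance 0.001), whole reads were computed back from it, and 1 read per kilobase was worth 0.0792 to 0.0964 RPKM. The libraries were not duplicates of each other.

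The longest row stood for each gene, and a gene entered the test with 1 RPKM or more in 2 or more libraries. The test was limma 3.58.1 in R 4.3.3 on log2(RPKM + 1), with a trended prior, 2-sided, all 4 libraries and no covariate, adjusted by Benjamini-Hochberg over 10310 genes at a threshold of 0.05. Residual degrees of freedom were 2, to which the prior added 4.63. The log2(RPKM + 1) scale understates differences of genes with low values. The procedure was tested on simulated data. UTRs, matched by accession for all 57 Rab genes, came from GENCODE M21 and the miRNA from RefSeq.

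The members, roles, partner and marker lists were chosen with earlier results of these data known. Values by library are given for the 12 tested Rab genes with the smallest p, the 6 with the highest mean RPKM, those with a seed match, the tested granule Rabs and, per partner class, up to 3 genes with the smallest p; genes named outside this rule (Rab11b, Rab32, Rab13, Rab24, Rab8a, Rab10 and 3 partners) were taken up as paralogs or to complete a count, after their values were seen. Alternatives were other filters, pseudocounts, scalings, rows, limma-voom, GC correction, a replicate block and leaving out each library.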

Additional observations from a re-analysis of the deposited data

How the results depend on the processing

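The 3 Rab genes with an unadjusted p under 0.05, Rab27a, Rab11a and Rab12, were the same under the stricter filter and each pseudocount, scaling, row choice and limma-voom; without the low-value filter Rab13 joined them, and GC correction put Rab27b in place of Rab11a. Leaving out a library moved this count between 0 and 11, the count of 14 partners between 2 and 31, the median of the Rab genes between -0.058 and 0.10, and the count of genes called over all genes, 0 with all libraries, between 0 and 91: it was 91 or 25 when miR-125b replicate 1 or 2 was left out, 0 when control replicate 1 was and 1 when control replicate 2 was. Of 25 named Rab genes, 19 under 16 alternatives and 6, which the stricter filter left out, under 15, 17 never changed sign. Leaving out libraries changed the sign of 8, whose log2 differences then spanned -0.85 to 0.0062 (Rab37), -0.31 to 0.054 (Rab22a), -0.45 to 0.16 (Rab40c), -0.046 to 0.20 (Rab3a), -0.13 to 0.0065 (Rab21), -0.21 to 0.34 (Rab38), -0.19 to 0.14 (Rab8b) and -0.13 to 0.12 (Rab3d). GC correction, alone or with the replicate block, changed the sign of Rab38 (-0.012) and Rab3d (0.0060), and quantile normalization that of Rab3d (0.022). The cause was not tested. With 1 library left in a group, that library is assumed to vary like the other group.

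The labels give both groups the replicate numbers 1 and 2 but no pairing. Across genes, deviations of same-numbered libraries had a correlation of 0.021. With 2 libraries a group this value cannot show whether same-numbered libraries share a culture or a day. The main test did not treat them as pairs. With the replicate number as a replicate block, 12 genes were called over all genes, 0 of them Rab genes, and Rab27a, Rab11a and Rab12 had an unadjusted p under 0.05; with the block and GC correction 0 genes were called. Genes with few reads limit what can be seen, since 1 read is worth up to 0.0964 RPKM at 1 kb.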
